A study of Homo sapiens with 23 samples.

Results

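Conjoined, or read-through, genes are annotated genes whose transcripts start in one gene and run on into the next gene of the same strand, so that a single RNA carries exons of both. They are named after both neighbours: in ARPIN-AP3S2 the first-named, upstream gene (called X here) is ARPIN and the last-named, downstream gene (called Y) is AP3S2. Members were the protein-coding genes of the GENCODE 29 annotation of GRCh38 whose symbol joins the symbols of 2 other genes of that annotation, leaving out symbols that begin with HLA- or MT-. The rule used names alone and no measured value. It found 124 genes among 58592, of which 109 met it with both the symbols of the release and the current ones, 13 with current symbols only and 2 with those of the release only. TMX2-CTNND1 was not analysed here, which left 123 members with values. Of these, 83 passed the filter on low counts and were tested, and the other 40 had means of at most 0.151 CPM (counts scaled to a fixed library total), 13 of them being at exactly 0 in every library.

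RNA polymerase II is normally released downstream of a gene's poly(A) site, where the cleavage and polyadenylation complex cuts the new RNA and the exonuclease XRN2 degrades the trailing piece. If the polymerase runs on, splicing can join an upstream exon of X to a downstream exon of Y, passing over the last exon of X, which has no splice donor, and the first exon of Y, which has no acceptor. Such joined RNAs often carry a stop codon ahead of a later exon junction, the mark by which nonsense-mediated decay (NMD) recognises its targets. The kinases CDK9 and CDK12 phosphorylate RNA polymerase II and its partners and are known to act on elongation and on the processing of RNA ends.

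RNA was measured in SUDHL5, an established line of human diffuse large B-cell lymphoma of germinal centre type, so each group describes this one line. CDK-TCIP1 is a bivalent small molecule built to bring transcriptional kinases to BCL6, the repressor on which such lymphomas depend, and the series title speaks of borrowing these kinases to activate apoptosis. Cells treated with it for 2 h make up 3 groups, with 2 libraries at a dose of 10 nM, 4 at 30 nM and 3 at 100 nM, and another group of 3 libraries had 30 nM for 4 h. The comparison compounds Neg1 (BAK_04_054) and Neg2 (BAK_04_066) were given at 30 nM, with 2 libraries each at 2 h and at 4 h, and the vehicle DMSO had 3 libraries at 4 h. Every group, treated or not, received the same final share of DMSO. There was no DMSO group at 2 h, so the 2 h groups were compared with Neg1 and Neg2 together, and for 10 and 100 nM that comparison also differs in dose. Nothing in the labels tells whether the replicates of a group came from separate cultures, and every p-value therefore reflects the spread among these libraries alone, which may be technical.

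The 23 libraries held 17396484 to 26373153 estimated counts. The 6 B cell markers summed to 1800 to 2570 CPM and the 5 germinal centre markers to 629 to 959 CPM, against at most 3.57 CPM for T and NK cells, 2.51 for myeloid cells, 1.70 for epithelial cells with fibroblasts and 0.297 for erythroid cells. Of the last 4 lists, 17 of 18 markers had a median under 1 CPM, and CD2 and HBB were at 0. Earlier results of these data set apart 100 nM replicate 1 and Neg2 replicate 1 at 2 h. The first had the lowest normalization factor of all (0.88, against 0.929 to 1.041 in the others). The mean correlation of log2 levels with the rest of the own group was 0.987 to 0.989 in the 100 nM group and 0.988 in the Neg2 group at 2 h, and 0.991 to 0.994 in all other libraries. Results at 2 h are given with both libraries, and the counts of calls that involve 2 h groups also without them, in a fit of 19256 genes with 91 members tested, where the lone Neg2 library left at 2 h is assumed to vary like the other groups. For comparisons other than the 3 doses against Neg1 with Neg2 and 4 h against 2 h, leaving them out was chosen after seeing the data.

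In the annotation, 123 of the 124 members lay on one strand of one chromosome with X upstream of Y. The exception was BORCS7-ASMT, whose name pairs genes of different chromosomes, and it was left out of every comparison with X and Y. The gap between the end of X and the start of Y had a median of 4705 bp, was at most 1000 bp for 36 members and negative (overlapping genes) for 15. In 96 members the annotated start lay within 1000 bp of that of X, with a median distance of 130 bp. In 83 of the 123 an annotated donor of X was joined to an annotated acceptor of Y. A last exon has no donor and a first exon no acceptor, so such joints pass over both by definition. Of these 83, 70 left an exon that was next to last in at least 1 transcript of X. The exon entered was second in at least 1 transcript of Y for 81, and 69 met both. Among all 124, 67 had at least 1 transcript annotated as an NMD target and 38 had no transcript annotated as protein-coding.

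The joint brings together exons that X and Y carry separately. In 98 of the 124 members more sequence is their own than a single joint gives, as counted after the joints. That count does not tell further joints from other sequence. The joints of 7 members on which the results turn are printed here as 30 bases of the spliced RNA. They read in the transcript's sense direction, 5′ to 3′. Lower case marks the last 15 bases of the X exon and capitals the first 15 bases of the Y exon, with coding sequence on both sides.
PPAN-P2RY11: tcccagggagcccagGTGCCAAGTCCTGCC
MIA-RAB4B: gatgtgaagacagacACTTCCTCTTCAAAT
ZFP91-CNTF: agtgggacggaacggAGCATTCACCGCTGA
STIMATE-MUSTN1: cgctttgggctacccGCTGGTGCTCAGGAA
HNRNPUL2-BSCL2: caatacaatcgggatGGACCCTCCATTTTC
ARPIN-AP3S2: gaggacgaggagtggCCAGAAGAAATTCAA
ATP5MF-PTCD1: gagcgtttcaaagagGCCCTGGAGGGACAG
On GRCh38 the introns removed at these joints are, on the plus strand, chr19:10111085-10113632 for PPAN-P2RY11, chr19:40777080-40780018 for MIA-RAB4B and chr11:58617569-58622765 for ZFP91-CNTF. On the minus strand they are chr3:52833750-52840499 for STIMATE-MUSTN1 and chr11:62707325-62715499 for HNRNPUL2-BSCL2. The other minus-strand introns are chr15:89889141-89903215 for ARPIN-AP3S2 and chr7:99435269-99460085 for ATP5MF-PTCD1. Each intron runs from X across the space between the genes into Y.

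Most of a conjoined transcript is sequence that X or Y also has, and this bounds what its count can show. Of all 31-base words in a member's transcripts, the median share found in no other annotated gene was 5.31%, with a range of 0.6 to 65.26%, and it was under 5% in 58 of the 124 members. In 26 members at most 30 such words existed, about those that span a single joint, and 98 had more. The counts are therefore estimates that divide shared reads by model between the conjoined gene, X and Y. The annotation itself places a member's counts almost entirely in joined transcripts, which says nothing of where the shared reads came from: in 81 of the 83 tested members every count was on transcripts with exons of both X and Y, and in 82 at least 90% was. BCL2L2-PABPN1 was the exception, with 83.4%.

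Together the members held 0.0495 to 0.0637% of a library's estimated counts. The 3 libraries of 30 nM CDK-TCIP1 at 4 h, at 0.0622 to 0.0637%, were the 3 highest of the 23, above DMSO at 0.0504 to 0.0562% and the rest at up to 0.0592%. In TPM, the kallisto unit that corrects for transcript length, the same groups overlapped (0.0406 to 0.0441% of the total at 30 nM and 4 h, 0.0324 to 0.0413% in DMSO). Transcripts annotated as protein-coding held a median of 55.5% of the members' counts, NMD targets 36.9%, retained introns 5.77% and processed transcripts 1.49%. Among tested members 11 had a mean of at least 10 CPM, 52 of at least 1 CPM and 31 under 1 CPM, and the 8 highest held 58.9% of the members' CPM. The median coefficient of variation between replicates was 12.8% for members at 10 CPM or more, 28.8% for those at 1 to 10 CPM and 110% under 1 CPM, and 33 tested members had under 0.5 estimated counts in at least 1 library.

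**Figure D1:**
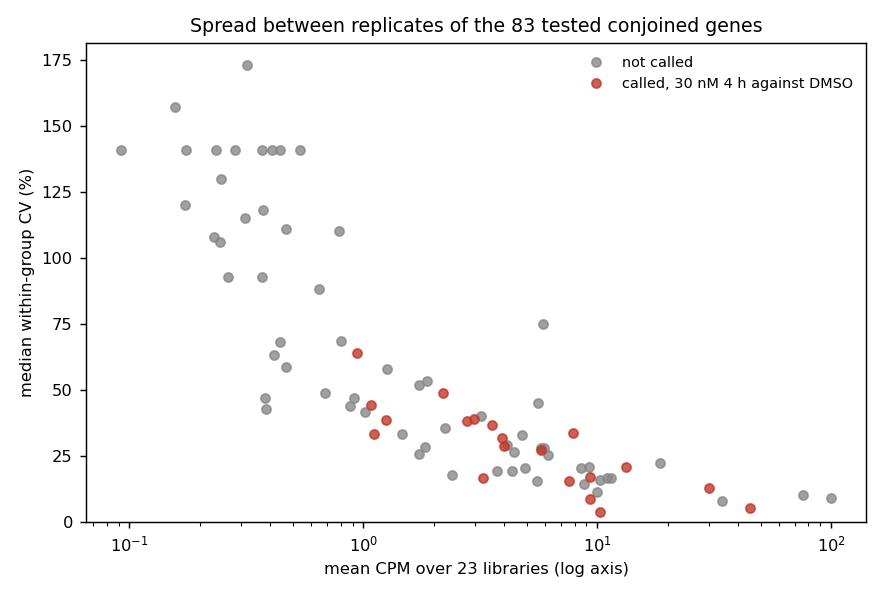
Each point is 1 of the 83 tested conjoined genes, with its mean CPM over the 23 libraries on a logarithmic x axis and the median coefficient of variation within groups, in percent, on the y axis, and red marks the 20 called at 30 nM and 4 h against DMSO. The spread widens toward low levels, from a median of 12.8% at 10 CPM or more to 110% under 1 CPM.

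After 4 h of 30 nM CDK-TCIP1, 17 of the 83 tested members rose against DMSO and 3 fell at an adjusted p under 0.05 (edgeR quasi-likelihood test, Benjamini-Hochberg over 17743 genes). Over all genes tested, 36.8% were called, 17.5% higher and 19.3% lower, against 24.1% of the tested members, 20.5% higher and 3.61% lower. Calls went with level, 19 of 52 members at 1 CPM or more against 1 of 31 below it, and a member that passed the filter only through a group where it is high had to differ, so these shares describe the tested members and support nothing about the rest. The median log2 fold change was 0.16 over the tested members and 0.03 over all genes tested. The upstream genes divided evenly, with 24 of 102 higher and 23 lower, and of 95 downstream genes 21 were higher and 15 lower.

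Against Neg1 and Neg2 of the same dose and time, which share the treated libraries with the previous comparison, 17 members rose and 4 fell, 25.3% of those tested beside 38.2% of all genes (18.5% higher, 19.7% lower). At 2 h, 30 nM raised 16 and lowered 2 (21.7%, beside 37.1% of all genes, 19.1% higher and 18% lower), 10 nM raised 3 and lowered 1 (4.82%, beside 13.5%, 6.79% higher and 6.76% lower), and 100 nM raised 18 and lowered 6 (28.9%, beside 44.9%, 22% higher and 22.9% lower). The 3 doses share their Neg1 and Neg2 libraries. Without the pair of libraries set apart, 7 members were called at 10 nM (6 higher; 12% of all genes), 17 at 30 nM (30.8%) and 19 at 100 nM (33.7%). The 4 h and 2 h comparisons with Neg1 and Neg2 share no library: 10 members rose in both, 58.8% of those that rose at 4 h and 62.5% of those that rose at 2 h. Over all genes the same shares were 59.7% and 57.7% (1959 genes). None of the 4 and 2 members that fell did so in both, beside 2025 of all genes, 57.9% of those that fell at 4 h and 63.5% of those at 2 h. The 10 that rose in both were ABCF2-H2BK1, ATF7-NPFF, MIA-RAB4B, PPAN-P2RY11, RTEL1-TNFRSF6B, SPECC1L-ADORA2A, STIMATE-MUSTN1, STX16-NPEPL1, TMED7-TICAM2 and ZFP91-CNTF, of which ABCF2-H2BK1 and STX16-NPEPL1 were not called at 2 h without the pair set apart. Against Neg1 alone at 2 h, ABCF2-H2BK1, STIMATE-MUSTN1, STX16-NPEPL1 and TMED7-TICAM2 were not called (adjusted p = 0.0651, 0.188, 0.147 and 0.195, edgeR). The rest of the 10 were called higher there. Between Neg1 with Neg2 and DMSO at 4 h no member was called by edgeR or by DESeq2, with 9 at an unadjusted p under 0.05, and no gene of the 17743 was called by edgeR (1177 unadjusted), 0%, and 10 by DESeq2.

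**Figure D2:**
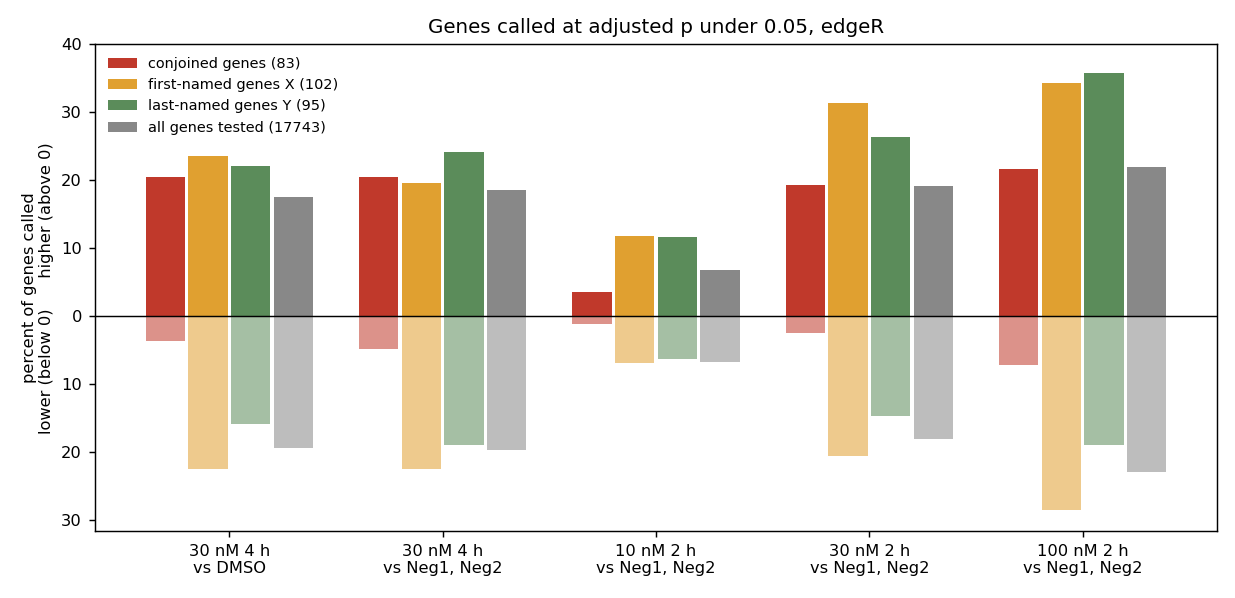
Bars give the percent of genes called at an adjusted p under 0.05 (edgeR), higher above the line and lower below it, for the tested conjoined genes, their first-named genes X, their last-named genes Y and all genes tested, in 5 comparisons. At 30 nM for 4 h against DMSO 20.5% of conjoined genes were higher and 3.61% lower, while X (23.5% and 22.5%) and all genes (17.5% and 19.3%) were nearly even.

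The first group described ends in a gene for a receptor or for an innate immune adaptor, and the 5 members described in it, a grouping made after their values were seen, each rose at 30 nM and 4 h both against DMSO and against Neg1 with Neg2. RTEL1-TNFRSF6B joins RTEL1, a helicase that protects telomeres, to TNFRSF6B, which encodes the soluble decoy receptor DcR3. It stood at 6.16, 2.87 and 4.59 CPM in DMSO and at 10.7, 15.2 and 12.3 CPM at 30 nM and 4 h, and all 4 libraries of Neg1 and Neg2 at 4 h lay in the DMSO range (4.76, 5.63, 5.06 and 3.51 CPM). The treated libraries were all above the others, a log2 fold change of 1.48 ± 0.20 SE against DMSO (adjusted p = 2.55e-06, edgeR) and 1.43 against Neg1 and Neg2. Its 2 h levels were 7.41, 6.95, 4.12 and 2.69 CPM with Neg1 and Neg2, 10.2 and 10.6 CPM at 10 nM, 13.1, 12, 14.5 and 13.8 CPM at 30 nM and 18.9, 14 and 14.5 CPM at 100 nM. No treated library of 2 h overlapped Neg1 or Neg2, and the log2 fold changes were 1.07, 1.44 and 1.68 at the 3 doses. The member was chosen after its values were seen. RTEL1 itself was at 0.17 on the log2 scale at 4 h against DMSO (adjusted p = 0.185, edgeR). TNFRSF6B was at -0.05 there (adjusted p = 0.985, edgeR), but its values were imprecise in other comparisons. They were 0.19 ± 1.24 SE for Neg1 and Neg2 against DMSO at 4 h and 0.5 ± 1.4 SE at 30 nM and 2 h. The value of -0.05 therefore does not show that TNFRSF6B stayed unchanged. At 2 h RTEL1 rose by 0.26 at 30 nM and 0.44 at 100 nM. A transcript annotated as a retained intron held 73.5% of the counts of RTEL1-TNFRSF6B.

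PPAN-P2RY11 joins PPAN, a factor of ribosome assembly, to P2RY11, a receptor for extracellular ATP. Its level was 42.7, 42.4 and 39.7 CPM in DMSO, 38.9, 39.2, 32.7 and 36.5 CPM with Neg1 and Neg2 at 4 h and 58.6, 55.7 and 56 CPM with 30 nM for 4 h. The treated libraries did not overlap either set, and the log2 fold change against DMSO was 0.45 ± 0.08 SE (adjusted p = 0.000141, edgeR). At 2 h the values ran from 34.2, 35.6, 35.6 and 45.7 CPM with Neg1 and Neg2 through 45 and 40.3 at 10 nM and 45.3, 47.7, 51.4 and 49.8 at 30 nM to 58.6, 51.3 and 48.6 at 100 nM, where the groups no longer overlapped. P2RY11 rose by 0.79 at 4 h against DMSO, while PPAN was at -0.06 (adjusted p = 0.693, edgeR) and at 2 h fell by 0.42 at 30 nM and 0.65 at 100 nM on the log2 scale. Per length, the conjoined gene was 16.5, 16.7 and 15.1% of the summed TPM of the 3 genes in DMSO and 18.8, 17.5 and 20% at 30 nM and 4 h.

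TMED7-TICAM2, chosen after its values were seen, joins TMED7, a cargo receptor of the secretory pathway, to TICAM2, an adaptor of Toll-like receptor 4. It was at 6.28, 5.73 and 6.25 CPM in DMSO and 18.9, 11.3 and 12.1 CPM at 30 nM and 4 h, with 4.48, 5.94, 6.47 and 5.19 CPM in Neg1 and Neg2. All 3 treated libraries were above the rest, the first furthest, for a log2 fold change of 1.21 ± 0.25 SE against DMSO (adjusted p = 0.000337, edgeR), and TMED7 rose by 0.34. At 2 h it was called at 30 nM (0.66) with 1 treated library inside the range of Neg1 and Neg2, but stood at 3.23, 6.15 and 8.93 CPM at 100 nM, on both sides of Neg1 and Neg2 (7.26, 5.82, 5.33 and 4.95 CPM), with a log2 fold change of 0.07 and a 95% interval of -0.46 to 0.59. The call at 30 nM and 2 h was lost without any of 4 libraries: treated replicate 1 or 2, Neg1 replicate 2 or Neg2 replicate 2.

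SPECC1L-ADORA2A joins SPECC1L, a cytoskeletal protein, to ADORA2A, a receptor for adenosine. It was at 0 in all 3 DMSO libraries and at 1.27, 0.69 and 2.12 CPM at 30 nM and 4 h, at least 9.84-fold higher when DMSO is set to a floor of 3 counts in each library (adjusted p = 0.0016, edgeR). Neg1 was at 0 in its 4 libraries, but Neg2 was at 1.71 and 0 CPM at 2 h and 0 and 1.04 CPM at 4 h, so that 1 Neg2 library lay within the treated range at each time. Every CDK-TCIP1 library held some, with 1.37 and 1.49 CPM at 10 nM, 0.713, 3.02, 1.61 and 0.93 CPM at 30 nM and 1.17, 3.28 and 1.29 CPM at 100 nM at 2 h. SPECC1L fell by 0.75 at 4 h against DMSO and by 1.23 at 100 nM on the log2 scale. The only transcript of the conjoined gene is annotated as an NMD target.

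IFNAR2-IL10RB joins a chain of the type I interferon receptor to a chain shared by the receptors for IL-10 and related cytokines. It was at 4.2, 7.74 and 3.33 CPM in DMSO and 17.4, 14.8 and 17.3 CPM at 30 nM and 4 h, which did not overlap, and at 0.28, 8.02, 3.99 and 5.49 CPM in Neg1 and Neg2. The log2 fold change was 1.70 ± 0.60 SE against DMSO (adjusted p = 0.0277, edgeR) and the parents were at 0.11 and 0.42, neither called. The call against DMSO was lost without any of 4 of the 6 libraries (treated replicates 1 and 3, DMSO replicates 1 and 3), under DESeq2 and with length scaling. At 2 h, 9.95, 4.92, 11.4 and 12 CPM at 30 nM and 8.94, 8.7, 0.201 and 8 CPM in Neg1 and Neg2 overlapped.

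**Figure D3:**
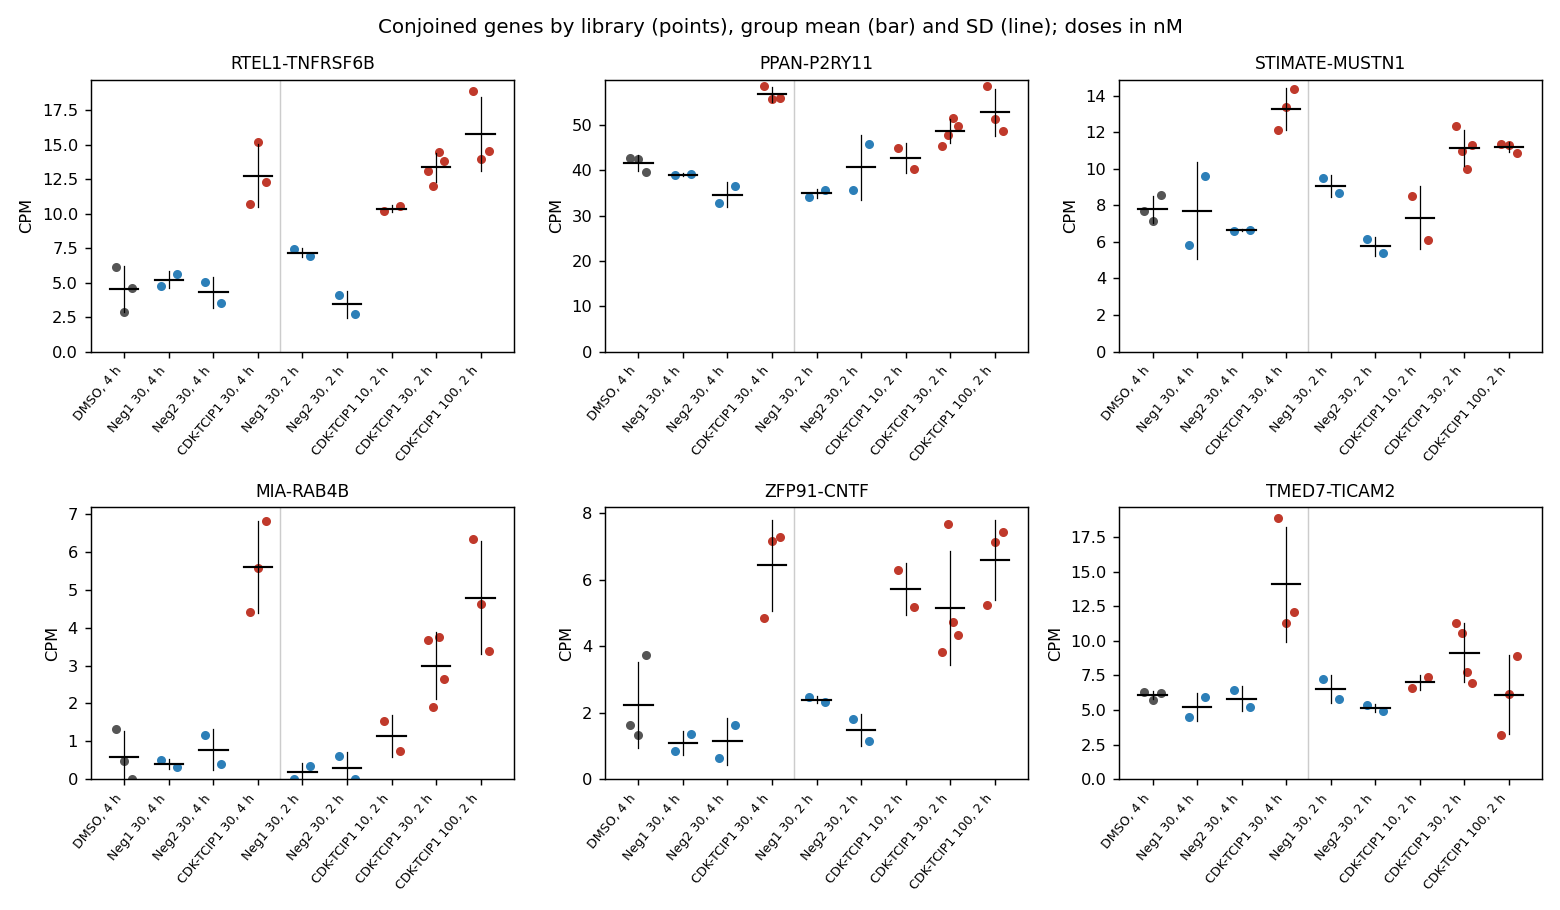
CPM of 6 conjoined genes in each library (points), with the mean (bar) and SD (line) of each of the 9 groups. The 3 libraries of 30 nM CDK-TCIP1 at 4 h lie above all DMSO libraries in each panel, for example 10.7, 15.2 and 12.3 against 6.16, 2.87 and 4.59 CPM for RTEL1-TNFRSF6B.

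The next 3 members are described together because at least 1 of their genes acts in membrane traffic, a grouping made after their values were seen. MIA-RAB4B joins MIA, a small secreted protein, to RAB4B, a GTPase of endosome recycling. It was at 1.32, 0.478 and 0 CPM in DMSO and 4.41, 5.56 and 6.82 CPM at 30 nM and 4 h, a log2 fold change of 3.15 ± 0.67 SE (adjusted p = 0.000522, edgeR). Levels at 2 h were 0, 0.36, 0.604 and 0 CPM in Neg1 and Neg2, 1.53 and 0.745 CPM at 10 nM, 3.69, 1.91, 3.75 and 2.63 CPM at 30 nM and 6.35, 4.62 and 3.38 CPM at 100 nM, so that no treated library overlapped Neg1 or Neg2 of that time. The rise was called at 30 nM (3.69) and 100 nM (4.37) but not at 10 nM (adjusted p = 0.0704, edgeR). Both parents rose with it at 4 h, MIA by 3.01 and RAB4B by 0.87 on the log2 scale. Its only transcript is annotated as an NMD target.

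ARPIN-AP3S2 joins ARPIN, an inhibitor of the Arp2/3 actin nucleator, to AP3S2, a subunit of the AP-3 vesicle adaptor. Its levels at 2 h were 5.63, 4.48, 7.14 and 6.72 CPM with Neg1 and Neg2, 5.63 and 3.46 CPM at 10 nM, 1.66, 0.9, 0 and 2.22 CPM at 30 nM and 4.12, 0 and 0 CPM at 100 nM. All 4 libraries at 30 nM lay below Neg1 and Neg2, a log2 fold change of -2.28 ± 0.63 SE (adjusted p = 0.0055, edgeR), a call that DESeq2 did not make. The call at 100 nM (-2.07) was lost with DESeq2, with length scaling, in a fit of only the groups compared, and without 100 nM replicate 2 or 3, the libraries at 0. AP3S2 rose at 30 nM by 0.73 and ARPIN was at -0.05 (adjusted p = 0.963, edgeR), with a wide 95% interval of -1.38 to 1.29. At 4 h the conjoined gene was at 5, 2.8 and 4.19 CPM treated and 6.6, 4.54 and 6.4 CPM in DMSO, ranges that overlap, with a log2 fold change of -0.55 and a 95% interval of -1.93 to 0.83.

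RNF103-CHMP3, which joins a ubiquitin ligase of the endoplasmic reticulum to CHMP3, a subunit of the membrane-remodelling ESCRT-III complex, was at 0 in both Neg1 libraries of 2 h and at 0.252 and 1.28 CPM in Neg2. CDK-TCIP1 at 2 h gave 0.547 and 2.45 CPM at 10 nM, 2.54, 1.64, 1.25 and 1.65 CPM at 30 nM and 3.12, 1.76 and 1.29 CPM at 100 nM. It was called higher at all 3 doses (adjusted p = 0.00607, 0.000374 and 0.000192, edgeR), with means at least 9.91, 11.7 and 13.6 times that of Neg1 at its floor. Beside Neg2 the difference was smaller, with treated means of 1.5, 1.77 and 2.06 CPM against 0.766 CPM in Neg2 at 2 h. The lower of the 10 nM libraries and the lowest of the 30 nM libraries lay below the higher Neg2 library, and the 10 nM call was lost without 10 nM replicate 2. At 4 h DMSO held 2, 0.573 and 1.51 CPM and 30 nM 2, 1.2 and 1.08 CPM, which overlap, and neither CHMP3 nor RNF103 was called at 30 nM and 2 h.

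The 5 members that follow each hold a gene for a DNA-binding protein and were likewise grouped after their values were seen. ZFP91-CNTF joins ZFP91, a zinc finger protein, to CNTF, the ciliary neurotrophic factor. Its level was 1.64, 1.34 and 3.73 CPM in DMSO, 0.84, 1.35, 0.643 and 1.63 CPM in Neg1 and Neg2 and 4.87, 7.17 and 7.29 CPM at 30 nM and 4 h, with every treated library above the rest. The log2 fold change was 1.54 ± 0.34 SE against DMSO and 2.53 ± 0.33 SE against Neg1 and Neg2 (adjusted p = 0.000715 and 9.53e-07, edgeR). At 2 h it rose at all 3 doses, from 2.47, 2.32, 1.81 and 1.15 CPM in Neg1 and Neg2 to 6.29 and 5.17 CPM at 10 nM, 3.84, 7.67, 4.73 and 4.34 CPM at 30 nM and 5.24, 7.14 and 7.45 CPM at 100 nM, with no overlap. CNTF rose alongside, by 1.26 at 4 h and 1.37 at 100 nM, while ZFP91 was at -0.09 at 4 h (adjusted p = 0.373, edgeR) and fell at 2 h, by 0.45 at 30 nM and 0.93 at 100 nM.

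ATF7-NPFF, chosen after its values were seen, joins the transcription factor ATF7 to the neuropeptide gene NPFF. It was at 2.48, 2.1 and 1.76 CPM in DMSO and 3.32, 4.32 and 4.61 CPM at 30 nM and 4 h, without overlap with each other (1 Neg2 library at 4 h reached the lowest treated value), and rose by 0.94 ± 0.26 SE on the log2 scale (adjusted p = 0.00625, edgeR). Its 2 h values were 1.93, 1.91, 2.72 and 1.37 CPM in Neg1 and Neg2, 3.44 and 2.67 CPM at 10 nM, 4.12, 3.86, 2.86 and 4.08 CPM at 30 nM and 6.68, 5.56 and 5.72 CPM at 100 nM, the last above all others. ATF7 was at 0.05 at 4 h (adjusted p = 0.662, edgeR) and fell by 0.21 at 100 nM, and 91.2% of the conjoined gene's counts were on a transcript annotated as a retained intron.

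ZNF559-ZNF177, which joins genes for zinc finger proteins, was at 0.2, 0.956 and 0.151 CPM in DMSO and 0.773, 1.89 and 3.67 CPM at 30 nM and 4 h. The lowest treated library lay below the highest DMSO library, and the log2 fold change was 2.27 ± 0.57 SE (adjusted p = 0.00262, edgeR). Neg1 and Neg2 at 4 h were at 1.06, 0.625, 1.16 and 0.989 CPM, and against them the member was not called (1.14, adjusted p = 0.0687, edgeR). ZNF559 fell by 0.41 and ZNF177 rose by 1.38 against DMSO.

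BORCS8-MEF2B joins a lysosome-positioning subunit to MEF2B, a transcription factor of germinal centre B cells that is recurrently mutated in lymphoma. It was at 18.2, 15.4, 6.64 and 15.3 CPM in Neg1 and Neg2 at 2 h, 21.3 and 17.4 CPM at 10 nM, 22.6, 25.4, 16.4 and 23.4 CPM at 30 nM and 35.7, 23.6 and 23.1 CPM at 100 nM. It rose by 0.69 ± 0.22 SE at 30 nM and 1.01 ± 0.24 SE at 100 nM (adjusted p = 0.0166 and 0.000963, edgeR), with BORCS8 at 0.42 and 0.47 and MEF2B at 0.19 and 0.42, all 4 called. The lowest value, in Neg2 replicate 1, and the highest, in 100 nM replicate 1, belong to the pair of libraries set apart at the outset, and both calls were lost without them. At 4 h, 17, 20.6 and 18.5 CPM treated overlapped 19.7, 14.9 and 9.48 CPM in DMSO.

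ZHX1-C8orf76 begins in ZHX1, a repressor of the zinc finger and homeobox type, and was among the 3 that fell at 4 h. It stood at 2.2, 1.96 and 3.58 CPM in DMSO and 0.728, 0.827 and 0.894 CPM at 30 nM and 4 h, without overlap, and the log2 fold change was -1.65 ± 0.52 SE (adjusted p = 0.0133, edgeR). In Neg1 and Neg2 at 4 h it was at 1.85, 1.51, 1.8 and 1.28 CPM, all above the treated libraries, but that comparison was not called (-0.98, adjusted p = 0.125, edgeR). ZHX1 was at -0.10 and C8orf76 rose by 0.52. The call against DMSO was lost without DMSO replicate 3, which held the highest value.

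In the next pair of members, grouped by that pattern itself, the conjoined gene and X were called in opposite directions at 4 h against DMSO. ABCF2-H2BK1 joins ABCF2, an ATP-binding protein of the ABC family, to the histone H2B gene H2BK1. It was at 29.6, 26.3 and 22.4 CPM in DMSO and 33.8, 35.1 and 31.3 CPM at 30 nM and 4 h, which did not overlap, and rose by 0.35 ± 0.13 SE (adjusted p = 0.0298, edgeR). ABCF2 fell by 0.69 and H2BK1 rose by 3.58 in that comparison. Per length, the conjoined gene made up 31.6, 28.2 and 24.3% of the TPM of the 3 genes in DMSO and 42.6, 47.4 and 35.9% at 30 nM and 4 h, again without overlap. The call was lost without treated replicate 1 or 2 or DMSO replicate 2 or 3, and with length scaling.

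STIMATE-MUSTN1, chosen after its values were seen, joins STIMATE, a regulator of calcium entry at the endoplasmic reticulum, to the musculoskeletal gene MUSTN1. It was at 7.68, 7.12 and 8.57 CPM in DMSO, 5.83, 9.59, 6.6 and 6.67 CPM in Neg1 and Neg2 and 12.1, 13.4 and 14.3 CPM at 30 nM and 4 h, with all treated libraries above the rest. The log2 fold change against DMSO was 0.77 ± 0.15 SE (adjusted p = 0.000236, edgeR), and STIMATE fell by 0.36. At 2 h it was at 8.53 and 6.09 CPM at 10 nM, 12.4, 11, 9.99 and 11.3 CPM at 30 nM and 11.4, 11.3 and 10.9 CPM at 100 nM, beside 9.48, 8.65, 6.14 and 5.39 CPM in Neg1 and Neg2. The step from 10 to 30 nM, 0.62 ± 0.17 SE, was the only call among the members for that step (adjusted p = 0.0447, edgeR), where 2.62% of all genes were called, 0.8% higher and 1.82% lower. Without the pair set apart 3 members were called there (4.02% of all genes), with ARPIN-AP3S2 and PEDS1-UBE2V1 added.

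**Figure D4:**
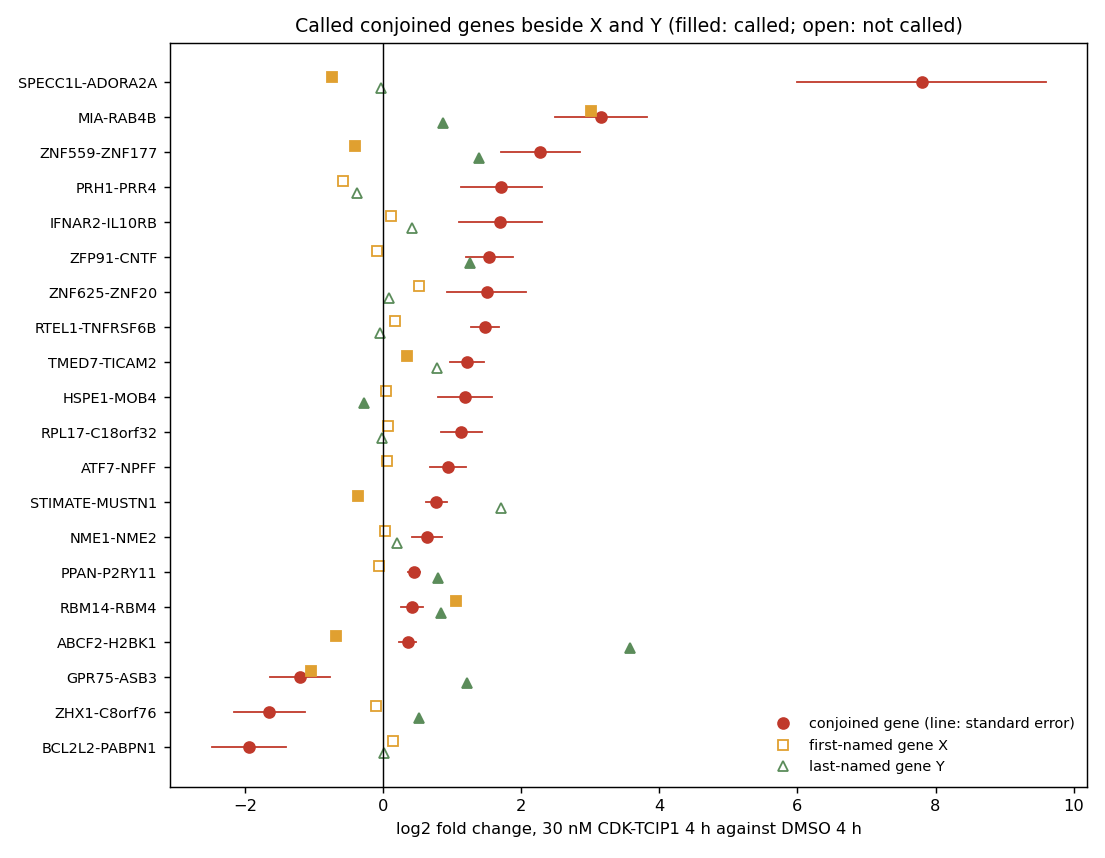
Log2 fold change at 30 nM CDK-TCIP1 for 4 h against DMSO, with its standard error, of the conjoined genes called in that comparison beside those of their genes X and Y. ABCF2-H2BK1 (0.35) and STIMATE-MUSTN1 (0.77) lie above 0 where ABCF2 (-0.69) and STIMATE (-0.36) lie below it.

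Of the 8 members with the highest levels, PPAN-P2RY11, BORCS8-MEF2B and ABCF2-H2BK1 are described above. HNRNPUL2-BSCL2, which joins the RNA-binding protein gene HNRNPUL2 to BSCL2 (seipin, a protein of lipid droplet assembly), had the highest mean of all members. It was at 101, 108 and 94.1 CPM in DMSO and 102, 103 and 87.2 CPM at 30 nM and 4 h, overlapping ranges with a log2 fold change of -0.05 and a 95% interval of -0.23 to 0.13. A rise was called at 2 h, from 86.7, 94.1, 74.9 and 91.7 CPM in Neg1 and Neg2 to 106, 108, 109 and 107 CPM at 30 nM and 127, 104 and 115 CPM at 100 nM, by 0.31 ± 0.07 SE and 0.41 ± 0.08 SE (adjusted p = 0.00183 and 0.00013, edgeR). HNRNPUL2 rose too, by 0.24 and 0.38. Its only transcript is annotated as an NMD target, and 30 of its 31-base words, 0.76%, are its own.

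ANKHD1-EIF4EBP3 joins ANKHD1, an ankyrin-repeat scaffold protein, to EIF4EBP3, a repressor of translation initiation. It was at 85.4, 75.4 and 70 CPM in DMSO, 73.7, 66.5, 51.5 and 78.2 CPM in Neg1 and Neg2 and 88.5, 85.6 and 88.2 CPM at 30 nM and 4 h. The treated libraries were above all of these, but the member was called only against Neg1 and Neg2 (0.38 ± 0.10 SE, adjusted p = 0.00544, against 0.18 ± 0.11 SE, adjusted p = 0.21 for DMSO, edgeR), and that call was lost without Neg2 replicate 1, the lowest library. ANKHD1 fell against DMSO by 0.52 and EIF4EBP3 rose by 1.58. At 100 nM and 2 h the conjoined gene fell by 0.26 (adjusted p = 0.0478, edgeR), a call lost without any of 5 of the 7 libraries (100 nM replicates 1 and 2, both Neg1 and Neg2 replicate 1).

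BOLA2-SMG1P6 joins BOLA2, of iron-sulfur protein maturation, to SMG1P6, a pseudogene of the NMD kinase SMG1, and near-identical copies of both make its counts uncertain. It was at 35.7, 32.1 and 37.7 CPM in DMSO and 33.6, 32.7 and 32.3 CPM at 30 nM and 4 h, ranges that overlap (-0.10 ± 0.10 SE). SMG1P6 rose by 2.12 and BOLA2 was at 0.20. NME1-NME2 joins a pair of similar genes for nucleoside diphosphate kinases and shares the same uncertainty. It was at 13.8, 10.3 and 8.27 CPM in DMSO and 19, 15.5 and 16 CPM at 30 nM and 4 h (0.64 ± 0.22 SE, adjusted p = 0.0237, edgeR), without overlap, but the call was lost without treated replicate 1 or DMSO replicate 2 or 3. The 2 h levels were 10.9, 11, 13.2 and 7.82 CPM in Neg1 and Neg2, 16.6, 14.3, 10.4 and 11.6 CPM at 30 nM and 16, 27.6 and 23.1 CPM at 100 nM. The rise from 30 to 100 nM, 0.74 ± 0.20 SE, was called (adjusted p = 0.0148, edgeR), and NME1 and NME2 were each called higher at 100 nM, by 0.46 and 0.64.

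ATP5MF-PTCD1 fell at 30 and 100 nM. It joins ATP5MF, a subunit of ATP synthase, to PTCD1, a factor of mitochondrial RNA processing. It stood at 2 h at 12.4, 8.19, 13.1 and 11.7 CPM in Neg1 and Neg2, 7.87 and 8.89 CPM at 10 nM, 5.51, 7.94, 5.36 and 6.56 CPM at 30 nM and 3.23, 4.51 and 6.34 CPM at 100 nM. The 30 and 100 nM libraries lay below all of Neg1 and Neg2, with log2 fold changes of -0.84 ± 0.17 SE and -1.27 ± 0.19 SE (adjusted p = 0.000231 and 4.28e-06, edgeR). PTCD1 fell as well, by 0.57 and 0.94, while ATP5MF rose by 0.39 and 0.63. At 4 h the treated libraries were at 12.3, 12.2 and 10.3 CPM beside 15.1, 13.8 and 12 CPM in DMSO, which overlap, and the difference between 4 h and 2 h at 30 nM was 0.88 ± 0.17 SE (adjusted p = 0.000574, edgeR). The change of the effect over time, taken against Neg1 and Neg2 of each time, was 0.67 ± 0.23 SE and was not called (adjusted p = 0.0663, edgeR).

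CHKB-CPT1B, which joins a choline kinase to the muscle form of the carnitine palmitoyltransferase of fatty acid oxidation, was called in none of these comparisons. It was at 7.12, 8.98 and 10.8 CPM in DMSO and 11.5, 8.5 and 11.6 CPM at 30 nM and 4 h, overlapping, with a log2 fold change of 0.23 and a 95% interval of -0.21 to 0.68, although CHKB rose by 0.51.

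The remaining named members rested on few or uneven counts. BCL2L2-PABPN1 joins BCL2L2, which encodes the anti-apoptotic protein BCL-w, to PABPN1, the nuclear poly(A)-binding protein. It was at 6.72, 9.32 and 1.16 CPM in DMSO and 1.23, 2.57 and 0.659 CPM at 30 nM and 4 h, with DMSO replicate 3 inside the treated range. Its fall of 1.95 ± 0.54 SE (adjusted p = 0.0058, edgeR) was lost without DMSO replicate 2 and with length scaling, and 1.4, 1.67, 2.14 and 2.72 CPM in Neg1 and Neg2 overlapped the treated values (-0.37, not called). The parents were at 0.14 and 0.01 against DMSO.

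GPR75-ASB3 joins an orphan G protein-coupled receptor to ASB3, a substrate adaptor for ubiquitin ligases. It was at 3.64, 3.01 and 3.98 CPM in DMSO and 0.637, 2.16 and 1.79 CPM at 30 nM and 4 h, without overlap, and fell by 1.21 (adjusted p = 0.0313, edgeR), a call lost without treated replicate 1, DMSO replicate 1 or DMSO replicate 3. GPR75 fell by 1.04 and ASB3 rose by 1.21. At 2 h it was at 3.56, 5.62 and 4.37 CPM at 100 nM against 1.38, 3.55, 2.42 and 1.86 CPM in Neg1 and Neg2, and rose by 0.98 (adjusted p = 0.0459, edgeR), a call lost without any of 5 of the 7 libraries (100 nM replicates 2 and 3, Neg1 replicate 1 and both Neg2).

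**Figure D5:**
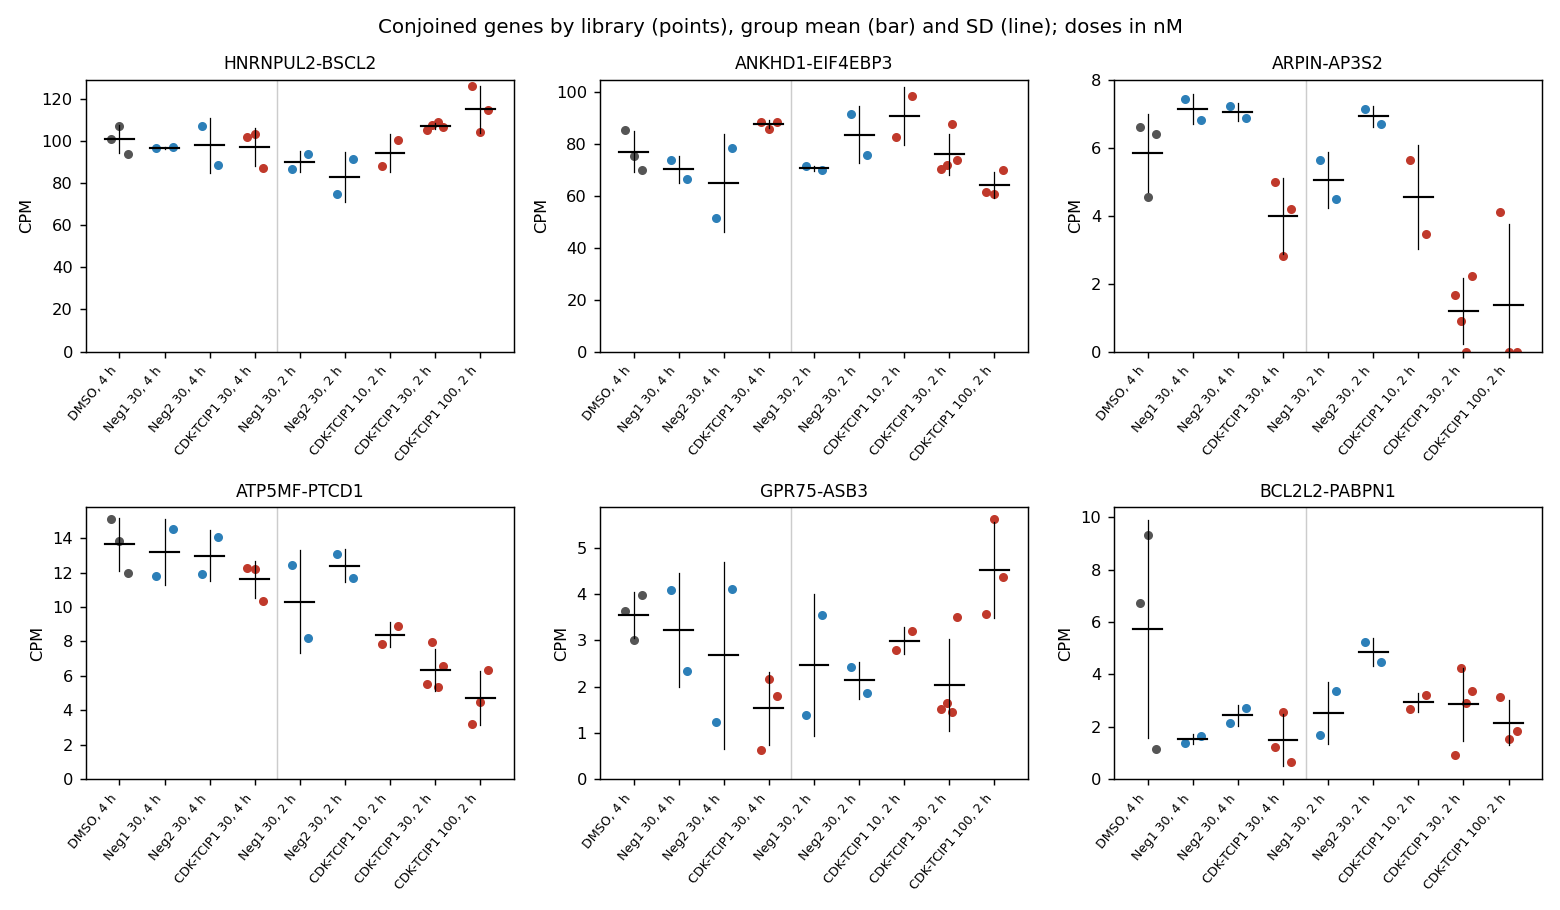
CPM of 6 further conjoined genes in each library (points), with the mean (bar) and SD (line) of each of the 9 groups. ATP5MF-PTCD1 falls from 12.4, 8.19, 13.1 and 11.7 CPM in Neg1 and Neg2 to 3.23, 4.51 and 6.34 CPM at 100 nM and 2 h, while BCL2L2-PABPN1 spreads from 1.16 to 9.32 CPM within DMSO.

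PRH1-PRR4 joins overlapping genes for proline-rich salivary proteins, whose reads cannot be fully told apart. It was at 0.76, 0.382 and 0.252 CPM in DMSO and 2.37, 1.2 and 1.13 CPM at 30 nM and 4 h (1.71 ± 0.58 SE, adjusted p = 0.0224, edgeR), without overlap, with the parents at -0.58 and -0.38. Neg1 and Neg2 at 4 h, at 1.51, 1.3, 1.03 and 1.48 CPM, overlapped the treated range, and the call was lost without treated replicate 1 or DMSO replicate 2 or 3. INO80B-WBP1 joins a subunit of the INO80 chromatin remodeller to a WW-domain-binding protein gene. It was at 0 in all 4 libraries of Neg1 and Neg2 at 2 h and at 0.475, 1.32, 0.52 and 0 CPM at 30 nM, where it was called (adjusted p = 0.0282, edgeR), and was also at 0 in 2 of 3 libraries at 100 nM and 6 of the other 12. That call was lost without 30 nM replicate 2 or any 1 of the 4 Neg1 and Neg2 libraries, and with DESeq2 or length scaling, with its parents at -0.07 and 0.17, neither called. Mean levels of INO80B-WBP1 at 4 h were 0.74 CPM in DMSO, 0.644 in Neg1, 0.478 in Neg2 and 0.329 at 30 nM CDK-TCIP1. The 4 h controls thus held levels near the mean of 0.58 CPM at 30 nM and 2 h.

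Across the 20 members called at 30 nM and 4 h against DMSO, X was called the same way for 4, the other way for 4 and not called for 12. For the 19 whose Y was tested, Y was called the same way for 6, the other way for 3 and not called for 10. In 10 of the 17 that rose, the rise was over 1 log2 unit larger than the change of X. These 17 were picked by their rise, and a member with a wide spread needs a large change to be called. That count therefore describes the called members alone. Across all members with X tested, the log2 fold changes of the member and of X had a Pearson r of 0.06 (n = 81 genes), and 0.36 among those at 1 CPM or more (n = 51); for Y the values were 0.04 (n = 76) and 0.07 (n = 49). Genes are not independent replicates, each trio shares its libraries and divides its reads, and most members are low, so these r values are a description.

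The share that the conjoined genes held of all trios pooled was 4.39 to 5.02% of estimated counts in DMSO and 5.10 to 5.31% at 30 nM and 4 h, without overlap. It divides the sum over members by the sum over members with X and Y, so it does not describe single trios. In TPM the pooled share was 1.62 to 2.13% and 1.96 to 2.14%, which overlap. At 2 h the count shares of 10, 30 and 100 nM (4.52 to 5.01% over the 9 libraries) overlapped those of Neg1 and Neg2 (4.58 to 4.92%).

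Taken singly, Neg1 and Neg2 gave fewer calls than together. At 4 h, 30 nM CDK-TCIP1 raised 13 members and lowered 2 against Neg1 (31.1% of all genes called) and raised 12 and lowered 2 against Neg2 (31.1%). The 2 h treatment raised 10 and lowered 2 against Neg1 (27.8%) and raised 12 and lowered 2 against Neg2 (30.5%). Without the pair set apart these became 12 and 4 against Neg1 (27.2%), and 7 and 2 against Neg2 (19%). Between Neg1 and Neg2 no member and none of the 17743 genes was called by edgeR at either time (0% each). At an unadjusted p under 0.05 there were 3 members and 464 genes at 4 h, and 11 members and 1126 genes at 2 h. Without the pair set apart there were again 0 calls at 2 h.

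Dose changed few members by a step that passed the test. From 30 to 100 nM, 3 were called (12.9% of all genes, 4.44% higher and 8.45% lower): NME1-NME2 as above, and, chosen after their values were seen, PEDS1-UBE2V1 at -1.35 ± 0.38 SE and JMJD7-PLA2G4B at -0.90 ± 0.29 SE (adjusted p = 0.0193 and 0.044, edgeR). PEDS1-UBE2V1 joins a desaturase of plasmalogen synthesis to UBE2V1, a ubiquitin-conjugating enzyme variant. It was at 5.92, 7.67, 2.52 and 7.91 CPM in Neg1 and Neg2 at 2 h, 2.46 and 1.01 CPM at 10 nM, 4.6, 5.35, 5.25 and 3.41 CPM at 30 nM and 1.84, 2.75 and 0.862 CPM at 100 nM. It was called lower at 10 nM (-1.81) and 100 nM (-1.71) but not at 30 nM (-0.36, adjusted p = 0.397, edgeR). Both 10 nM libraries lay below all 4 at 30 nM, and the 10 nM call was lost without 10 nM replicate 2. From 10 to 100 nM 9 members rose and 4 fell, 15.7% beside 25.1% of all genes. Without the pair set apart, 3 members were again called from 30 to 100 nM (4.68% of all genes), with ARPIN-AP3S2 in place of JMJD7-PLA2G4B, and 8 from 10 to 100 nM (5 higher; 17%).

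Between 2 and 4 h at 30 nM, 7 members were called, 5 higher and 2 lower, 8.43% beside 21.9% of all genes. Without the pair set apart, 9 were called (7 higher; 22.2% of all genes). The effect against Neg1 and Neg2 differed between the times for 5 members (3 higher at 4 h, 2 lower), beside 12% of all genes, 5.61% higher and 6.37% lower. Without the pair set apart it differed for 4 members, all higher at 4 h (10.7% of all genes). RPL17-C18orf32 and HSPE1-MOB4, chosen after their values were seen, were among those higher at 4 h. RPL17-C18orf32 begins in a gene for a protein of the large ribosomal subunit and was at 14.8, 6.89 and 11.2 CPM at 30 nM and 4 h, 4.36, 6.55 and 4.13 CPM in DMSO, and 3.65, 7.15, 5.41 and 5.01 CPM at 30 nM and 2 h. Its 4 h rise of 1.13 ± 0.30 SE against DMSO (adjusted p = 0.0041, edgeR) stood beside 0.03 at 2 h against Neg1 and Neg2 (95% interval -0.54 to 0.61), and the difference of the effects was 1.40 ± 0.39 SE (adjusted p = 0.0183, edgeR). HSPE1-MOB4 joins the mitochondrial chaperonin HSPE1 to MOB4, a subunit of a phosphatase complex, and was at 6.96, 8.87 and 4.89 CPM at 30 nM and 4 h, 3.96, 3.63 and 1.46 CPM in DMSO and 4.08, 4.76, 2.13 and 4.55 CPM at 30 nM and 2 h. For both, X and Y were within 0.3 of 0 on the log2 scale at 4 h against DMSO, MOB4 being called lower (-0.29).

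Of 32 genes for cleavage, polyadenylation and termination, 14 rose and 9 fell at 30 nM and 4 h against DMSO, with a median log2 fold change of 0.01, and 12 rose and 10 fell at 30 nM and 2 h against Neg1 and Neg2. Over all genes tested, 17.5% rose and 19.3% fell in the first of these comparisons, with a median of 0.03, and 19.1% rose and 18% fell in the second. RBBP6, a ubiquitin ligase of the cleavage complex, rose by 1.42, CSTF3, a subunit of the cleavage stimulation factor, rose by 0.74, and CPSF2, a subunit of the cleavage and polyadenylation specificity factor, fell by 0.55. XRN2 was at -0.01 (adjusted p = 0.872, edgeR). Of 19 genes for NMD, 2 rose and 12 fell at 4 h against DMSO, with a median of -0.18, and 4 rose and 7 fell at 2 h, to be read beside the same shares of all genes. The kinase SMG1 fell by 0.31 and the helicase UPF1 by 0.18, while UPF2 rose by 0.24. These lists were written with earlier results of these data known, and their part in the levels of the conjoined genes was not tested.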

How the data were processed

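RNA was poly(A)-selected and sequenced in pairs, per the labels' protocols. Reads were handled with FastQC, cutadapt, kallisto and DESeq2, per the submitters' processing notes. Versions, the genome build and the transcript set used are unknown here: the sources used do not give them. The deposited tables hold, per transcript, the authors' kallisto estimated counts (reads divided between transcripts by model) and TPM (scaled per length and to a fixed total). The authors' estimated counts and TPM were summed per gene through GENCODE 29 transcript identifiers, and transcripts without a match there held 1.16 to 1.28% of a library's counts. Members on alternative haplotypes may have lost counts in this way.

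Summed counts were rounded and tested with edgeR 4.0.16 (R 4.3.3): TMM normalization, a filter on low counts by group, 1 quasi-likelihood fit of all 23 libraries (14 residual degrees of freedom) and Benjamini-Hochberg adjustment over 17743 genes. Fold changes are log2. CPM are gene sums divided by the TMM-scaled library totals. Genes X and Y were taken from the same fit. A fold against a group at 0 uses a floor of 3 counts per library, which covers counting error only. Sequences and 31-base words were read from the GENCODE 29 transcripts with Python 3.11.15. The edgeR fit was tested on simulated counts for 1 comparison, with 1 fixed spread and no change simulated in the lowest genes. It does not cover the wide spread of low members.

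Members named with values in every library were the 8 of highest mean CPM, the largest called rises and falls (up to 6 each way at 30 nM and 4 h against DMSO, up to 4 each way at 30 nM and 2 h), the 3 called members each way that differed most from X, and ARPIN-AP3S2, with any other said to be chosen after its values were seen. The members, lists and tests were chosen with earlier results of these data known. Alternatives were DESeq2 1.42.0, length scaling, no filter, a fit of only the groups compared, a replicate block, only protein-coding transcripts of members, TPM for the summed levels, and leaving out each library or the pair set apart.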

Additional observations from a re-analysis of the deposited data

Results flagged for a closer look

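In 30 nM CDK-TCIP1 at 2 h, GPR75-ASB3 had 1 library far from the others, at 3.51 CPM against 1.51, 1.64 and 1.46 CPM. Chance flags about 1 in 20 groups in this way.

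The effect of 30 nM CDK-TCIP1 against Neg1 and Neg2 differed between 4 h and 2 h, by the test of the difference itself, for 5 members. Without the pair of 2 h libraries set apart, UBE2F-SCLY and LY75-CD302 were no longer called and PPAN-P2RY11 was, with the other 3 called in both fits. It was larger at 4 h by 1.64 on the log2 scale for HSPE1-MOB4 (adjusted p = 0.0307, edgeR), by 1.40 for RPL17-C18orf32 (adjusted p = 0.0183) and by 0.71 for RBM14-RBM4 (adjusted p = 0.0285), which joins genes for RNA-binding proteins of splicing. RBM14-RBM4 was at 14, 13.3 and 12.9 CPM treated and 13.4, 12.8, 8.02 and 8.3 CPM in Neg1 and Neg2 at 4 h, and at 10.9, 7.73, 8.43 and 9.04 CPM treated and 11.9, 12, 11.1 and 10.7 CPM in Neg1 and Neg2 at 2 h.

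It was lower at 4 h for UBE2F-SCLY, at -4.54 (adjusted p = 0.0437, edgeR), and for LY75-CD302, at -7.90 (adjusted p = 0.0448). UBE2F-SCLY was at 0, 0.0919 and 0.0471 CPM treated and 0.392, 0.625, 0.557 and 0.544 CPM in Neg1 and Neg2 at 4 h, and at 0.515, 1.59, 0.26 and 0.362 CPM treated and 0.296, 0.154, 0.503 and 0.265 CPM in Neg1 and Neg2 at 2 h. LY75-CD302 was at 0, 0 and 0.0471 CPM treated and 1.01, 0, 1.2 and 1.58 CPM in Neg1 and Neg2 at 4 h. At 2 h it was at 0, 0.106, 0.364 and 1.86 CPM treated and 0, 0, 1.61 and 1.28 CPM in Neg1 and Neg2. Both rest on libraries at or near 0, and a fitted difference of that kind depends on the prior count and gives no bound.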

How the results depend on the processing

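Members without a protein-coding transcript, such as MIA-RAB4B and SPECC1L-ADORA2A, could not keep a call under the alternative that counts only such transcripts. Of the 20 members called at 30 nM and 4 h against DMSO, 8 kept their call under every alternative run and 10 under every left-out library. Counting only protein-coding transcripts of members left 11 calls (8 higher) there, 12 (10 higher) against Neg1 and Neg2 at 4 h, 8 (6 higher) at 30 nM and 2 h, 2 (1 higher) at 10 nM and 10 (6 higher) at 100 nM; fewer members have such transcripts. Length scaling gave 13 (12 higher) against DMSO and 1 (higher) for 4 h against 2 h. Without a filter there were 29 (26 higher) at 30 nM and 2 h, 16 (13 higher) at 10 nM, 37 (28 higher) at 100 nM, 17 (11 higher) for 4 h against 2 h, and 4 (2 higher) for Neg1 and Neg2 against DMSO, where the main count was 0. That setting tests every gene with any count, so more members enter than in the main fit. Apart from the pair set apart, shares of all genes called are not given for these alternatives. Their counts therefore have no background beside them. A fit of only the groups compared gave 11 (10 higher) for 4 h against 2 h, and leaving out the pair set apart gave 7 at 10 nM; the cause was not tested. Leaving out 1 library gave 13 (without DMSO replicate 3) to 18 against DMSO, 15 to 20 against Neg1 and Neg2 at 4 h, 14 to 20 at 30 nM and 2 h, 19 to 25 at 100 nM, and 0 throughout for Neg1 and Neg2 against DMSO. It gave 2 to 8 at 10 nM, where 10 nM replicate 2 left 2, Neg2 replicate 1 left 7 and Neg2 replicate 2 left 8. For 4 h against 2 h it gave 4 to 7, with 4 without 2 h replicate 2, 4 h replicate 1 or 4 h replicate 3. No recomputed value reversed. Every other count stayed within 1.5 times the main count. Of the 31 tested members under 1 CPM, with a median coefficient of variation of 110%, 1 was called at 30 nM and 4 h against DMSO, and the part of depth in this was not tested.

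The replicate numbers showed no clear pairing of the libraries: of 78 same-numbered pairs across groups 11 had a correlation of deviations over 0.1 (range -0.229 to 0.212), and 8 of 23 libraries correlated best with their own number. Deviations in a group of 2 libraries mirror each other, so pairs between 2 such groups repeat a value and are not separate observations. With the replicate number as a block the counts were 20 against DMSO, 21 against Neg1 and Neg2 at 4 h, 16, 4 and 24 at 30, 10 and 100 nM at 2 h, 6 for 4 h against 2 h and 0 for Neg1 and Neg2 against DMSO. These counts, too, are given without the share of all genes called in that fit.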
